A study of Rattus norvegicus with 138 samples.

Results

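The comparison of tungsten (W) with tantalum (Ta) rests on 15 W and 15 Ta serum libraries out of 138 in the whole series. They were chosen by their labels alone, as all libraries of these implanted metals from bleeds 1, 3, 6 and 12 months past surgery. Each group held 4 libraries, except W and Ta at 6 months with 3 each. The animals were male Sprague-Dawley rats of 3 months of age at surgery. Each received 2 pellets, 1 mm by 2 mm, in the gastrocnemius muscle of each leg, 4 pellets in all. Ta was the control for the operation, as an inert metal, so every rat of both groups carried implanted metal, and no unoperated group entered the comparison. The other 108 libraries came from rats with pellets of another metal, namely Al, Co, Cu, DU (depleted uranium), Fe, Ni or Pb. The series text gives 8 rats per group, bled at every month. The labels do not say which rats the numbered libraries came from, so p-values measure the spread between these libraries, and libraries of different months may share a rat.

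MicroRNAs are short RNAs that bind messenger RNAs mainly through their seed, bases 2 to 8 from the 5′ end, and lower their output. Those in serum come from many tissues: red cells, platelets and leukocytes shed them, as do liver, endothelium and injured muscle. The let-7 family promotes the differentiated state of many cell types and is abundant in blood. The miR-30 family is widely expressed, with high levels in kidney, heart and muscle. In serum, release by more cells and release of more RNA per cell cannot be told apart.

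Mature sequences of let-7 and miR-30 family members, and of 3 further miRNAs whose values turn on the low libraries, are given below from RefSeq (the table of the GRCr8 assembly, which held 138 of the 147 miRNAs named or listed here), with the seed in capitals. The let-7 members shown share the seed GAGGUAG with 9 of 9 family members, and differ from each other in bases outside it.
let-7a-5p: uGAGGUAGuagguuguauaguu
let-7c-5p: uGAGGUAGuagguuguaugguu
let-7d-5p: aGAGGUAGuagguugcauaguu
let-7e-5p: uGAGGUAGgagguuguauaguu
let-7f-5p: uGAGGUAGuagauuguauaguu
let-7g-5p: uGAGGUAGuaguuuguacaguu
The miR-30 members below share the seed GUAAACA.
miR-30a-5p: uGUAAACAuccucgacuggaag
miR-30c-5p: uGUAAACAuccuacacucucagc
miR-30e-5p: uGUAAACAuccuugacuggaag
The next 3 had the changes over months that passed the test beside that of miR-30d-5p, and have seeds unlike each other.
miR-26a-5p: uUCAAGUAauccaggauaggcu
miR-16-5p: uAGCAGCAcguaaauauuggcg
miR-199a-3p: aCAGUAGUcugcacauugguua

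Depth differed between the groups. The 30 libraries held 1645 to 2401492 miRNA counts with a median of 777728, against 518 to 6406599 over all 138. At 1 month the W libraries held 919719, 1494278, 1448222 and 1067186 counts and the Ta libraries 377666, 539673, 455929 and 316852. The W totals were thus all above the Ta totals at 1 month (exact permutation test, two-sided, p = 0.0286, the smallest that 4 against 4 allows, 0.114 after adjustment over 4 months). They were also all above at 6 months (p = 0.1 in the exact test, the smallest that 3 against 3 allows), overlapped at 3 months (exact p = 0.943), and at 12 months stood apart only without the lowest W library (exact p = 0.0571). Only 2 of the 30 libraries, and 6 of 138, held fewer than 20000 counts: Ta replicate 3 at 3 months with 1645 and W replicate 3 at 12 months with 3789. In the first, miR-451-5p took 22.7% of the counts (95% exact binomial interval 20.7% to 24.8%), miR-26a-5p 21.5% (19.5% to 23.5%) and miR-16-5p 14.7% (13% to 16.5%). In the second, miR-30d-5p took 21.8% (20.5% to 23.1%), miR-122-5p 18.5% (17.3% to 19.7%) and miR-30a-5p 11.9% (10.8% to 12.9%). There miR-16-5p had 0 counts, which allows a share of up to 0.0973% by the same kind of interval. The intervals and the limit cover counting error only. The tests were therefore also run without all libraries under 20000 counts, of any metal. Of the other metals, 3 libraries at 3 months and 1 at 1 month also fell out of those fits.

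**Figure D1:**
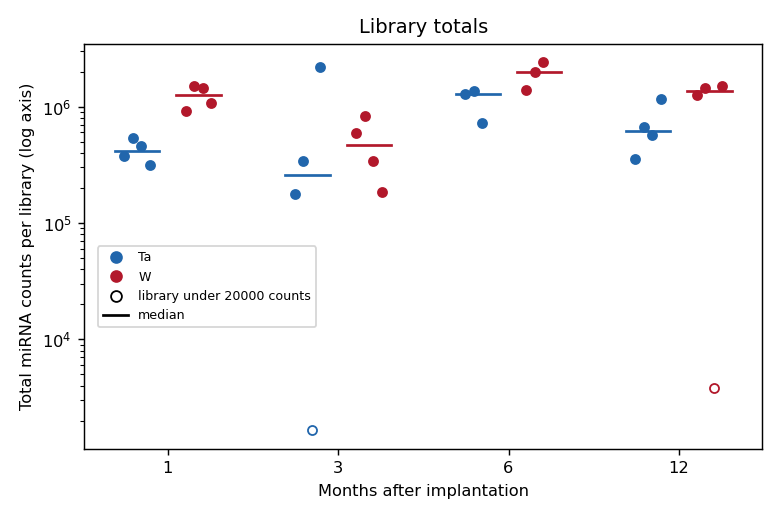
Total miRNA counts of each W and Ta library (log axis) by month. The W libraries lie above the Ta libraries at 1 and 6 months, and the 2 open points are the libraries of 1645 and 3789 counts.

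At 1 month, the miR-30 family and most of the let-7 family were higher in W serum than in Ta serum by fitted values. No miRNA passed the test with all libraries. Levels are CPM, counts relative to library size scaled with TMM factors, differences are log2 W minus Ta ± SE, and a miRNA is called at an adjusted p under 0.05 (edgeR quasi-likelihood test, Benjamini-Hochberg). Of 270 miRNAs tested 0 were called (0%), 24 had an unadjusted p under 0.05, and DESeq2 called 7. Without the libraries under 20000 counts, 1 of 289 was called (0.346%), miR-30d-5p, which was higher in W than in Ta. Only 1 library fell out at that month, from a Co rat, so the same W and Ta libraries stood behind the call.

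In the W libraries at 1 month miR-30d-5p stood at 4362, 4643, 3887 and 3155 CPM. In the Ta libraries it stood at 1956, 782, 1245 and 1615 CPM. The groups did not overlap. The difference was 1.52 ± 0.37 (adjusted p = 0.0615), and 1.40 ± 0.30 (adjusted p = 0.0169) without the low Co library. Over the alternatives the adjusted p ran from 0.000504 with DESeq2 to 0.556 with the W and Ta libraries fitted alone, and each left-out library gave an adjusted p of 0.0731 to 0.442. The 28 libraries of the other metals ranged from 1880 to 6379 CPM with a median of 3585, so that Ta was the lowest of 9 metals and W the 7th by mean. As a share of raw counts, before scaling, the groups overlapped: 0.265% to 0.886% in W and 0.108% to 0.297% in Ta.

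The other 3 measured members of the family lay in the same direction. miR-30c-5p stood at 1626, 3008, 2010 and 1730 CPM in W and 860, 923, 925 and 248 in Ta, without overlap. miR-30e-5p stood at 701, 637, 601 and 686 CPM in W and 183, 571, 270 and 342 in Ta, also without overlap. For miR-30a-5p, at 1019 to 1975 CPM in W and 635 to 1333 in Ta, the groups overlapped. The family's median difference was 1.22, beside 0.21 over all 270 tested miRNAs, and 4 of 4 members were lowest in Ta among the 9 metals. Counted from the lowest metal, W ranked from 2 to 8 for these members and was the highest for 0 of them. Summed, the family took 0.634% to 1.62% of raw counts in W and 0.261% to 0.552% in Ta. The W libraries were also those with the higher totals at this month, and the part of depth in this difference was not tested.

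Of the let-7 family, 8 of 9 members were higher in W at 1 month, with a median difference of 0.65 and 0 called. Over the settings tried, single left-out libraries aside, the median ran from 0.32 to 0.72. Summed, the family took 4.84% to 25.8% of raw counts in W and 2.56% to 19.7% in Ta, so the groups overlapped. let-7d-5p stood at 2817, 2571, 2090 and 1472 CPM in W and 1344, 813, 1470 and 919 in Ta. The lowest W library of let-7d-5p lay just above the highest Ta library. miR-98-5p, which carries the let-7 seed, stood at 119, 133, 144 and 105 CPM in W and 85.5, 3.52, 80.7 and 68.4 in Ta, without overlap. Over all tested miRNAs, the W libraries lay wholly above the Ta libraries for 6 of 270 (2.22%), of which 3 were of the miR-30 family and 2 of the let-7 family, and the 6th was miR-3559-5p. They lay wholly below for 2 (0.741%), miR-6328 and miR-378b. In an exact permutation test of 4 against 4, full separation in either direction has p = 0.0286. These shares of all tested miRNAs are thus near those that random labels give.

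Other miRNAs with small unadjusted p at 1 month were sparse or scattered. miR-223-3p, a miRNA of neutrophils and other myeloid cells, stood at 1775, 521, 1015 and 414 CPM in W and 461, 134, 234 and 17.1 in Ta. Its difference was 2.13 ± 0.83 (adjusted p = 0.433), with overlapping groups. miR-3559-5p stood at 186, 102, 124 and 21.2 CPM in W and at 0, 19.9, 0 and 0 in Ta (adjusted p = 0.19). miR-378b was at 0 counts in all 4 W libraries and at 6.98, 42.2, 25.2 and 38.5 CPM in Ta (adjusted p = 0.216). It had a count in 6 of the 28 libraries of the other metals.

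**Figure D2:**
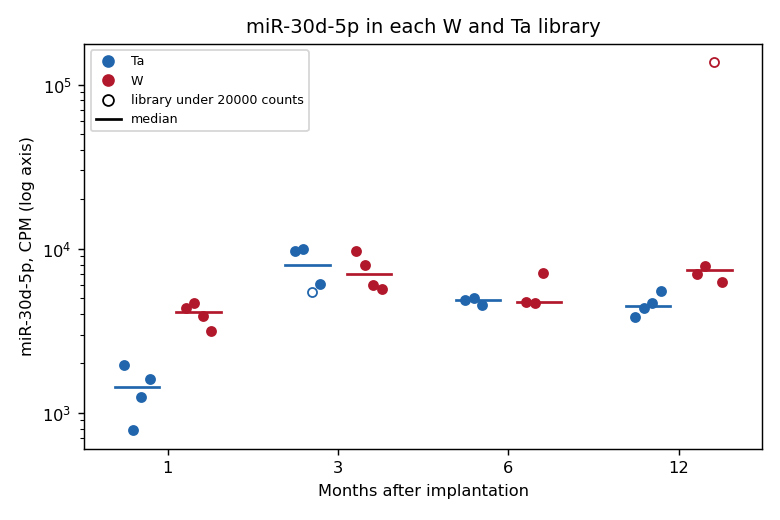
CPM of miR-30d-5p in each W and Ta library (log axis) by month, with the group median as a line. W and Ta are apart at 1 month (3155 to 4643 against 782 to 1956 CPM) and at 12 months, overlap at 3 and 6 months, and the open point at 136407 CPM is the W library of 3789 counts.

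At 3 months, red-cell miRNAs and miR-26a-5p were lower in W than in Ta by fitted values, but the size of these differences rested on the Ta library of 1645 counts and none passed the test. Of 167 miRNAs tested 0 were called (0%), and 0 of 180 without the low libraries (0%). An unadjusted p under 0.05 was found for 19 with all libraries and for 7 without the low ones, while DESeq2 called 7. miR-451-5p, made almost only in the red cell lineage, stood at 7012, 4624, 2556 and 7348 CPM in W and at 7793, 18930, 289388 and 9305 in Ta. The groups did not overlap, and the value of 289388 belonged to the low library. The difference of -3.91 ± 1.25 (adjusted p = 0.174) became -1.17 ± 1.07 in the fit without the low libraries, which also left out 3 of other metals.

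miR-26a-5p, abundant in many tissues including muscle, stood at 3304, 12998, 6485 and 7285 CPM in W and 12953, 19644, 273139 and 22110 in Ta. One W library, at 12998 CPM, reached above the lowest Ta library. The difference was -3.44 ± 1.00 (adjusted p = 0.174), and -1.25 ± 0.64 (adjusted p = 0.815) without the low libraries. miR-16-5p, another miRNA rich in red cells, stood at 1762, 355, 730 and 409 CPM in W and 759, 601, 187251 and 3196 in Ta, so that the other Ta libraries lay among or near the W libraries. Its difference went from -5.87 ± 1.91 to -0.71 ± 1.83 without the low libraries. miR-199a-3p, of fibroblasts and platelets, went from -3.72 ± 1.49 to -0.39 ± 1.13.

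The red-cell list moved in the same direction with less size. Of its 8 members 6 were lower in W at 3 months and 0 were called. The median was -0.85, or -0.53 without the low libraries, beside 0.18 over all tested miRNAs. With the 1 member that had a group at 0 set to its bound, the median was -0.16. The list took 2.11% to 3.47% of raw counts in W and 3.63% to 37.8% in Ta, so the groups did not overlap. Such shares were read for 15 lists at each of 4 months. Besides the red-cell, let-7 and miR-30 lists, the list of miRNAs induced by p53 was also apart, at 6 months (2.49% to 4.49% in W, 4.68% to 7.94% in Ta). The usual haemolysis measure, log2 miR-451-5p minus miR-23a-3p, was 0.87 ± 0.61 (SD, n = 4) in W and 3.32 ± 2.60 (SD, n = 4) in Ta (exact permutation p = 0.0857, 0.343 after adjustment over months). Without the low Ta library it was 2.11 ± 1.13 in Ta (exact p = 0.171). The part of haemolysis in these differences was not tested.

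Among miRNAs higher in W at 3 months, miR-10a-5p, a miRNA from the HOX gene clusters and among the most abundant in these libraries, stood at 580154, 132433, 64896 and 40470 CPM in W and 12624, 25282, 9285 and 118663 in Ta. One Ta library lay above 2 of the W libraries (2.30 ± 1.13, adjusted p = 0.437, and 2.14 ± 1.25 without the low libraries). The muscle miRNA miR-1-3p stood at 548, 192, 732 and 9419 CPM in W and at 0, 35.5, 0 and 346 in Ta (4.52 ± 2.43, adjusted p = 0.492, and 4.68 ± 2.91 without the low libraries). Only miR-92b-3p lay wholly above Ta, 1 of 167 (0.599%), and 2 lay wholly below (1.2%), miR-451-5p and miR-146b-5p. Without the low libraries miR-92b-3p was again the one above, 1 of 180 (0.556%), but 6 lay wholly below (3.33%): those 2 with let-7i-5p, miR-142-5p, miR-30a-3p and miR-27a-5p. Full separation in either direction has an exact permutation p of 0.0286 for 4 against 4 and 0.0571 for 3 against 4. The smaller group thus separates more easily, and these shares are not above those that random labels give. The miR-30 and let-7 families did not stand apart at this month: let-7 members were higher in W for 5 of 9 with all libraries and for 2 of 9 without the low ones, and miR-30 members for 2 of 4 and 0 of 4.

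At 6 months, 9 of 9 let-7 family members were higher in W than in Ta, 6 of them without overlap between the groups, and none passed the test. Both groups held 3 libraries, and none of the month's libraries was under 20000 counts, so the results with and without the low libraries are the same. Of 272 miRNAs tested 0 were called (0%, and 0% again in the second fit). Only 4 had an unadjusted p under 0.05, and DESeq2 called 5. The W libraries lay wholly above the Ta libraries for 14 of 272 (5.15%) and wholly below for 16 (5.88%). In an exact permutation test of 3 against 3, full separation in either direction has p = 0.1. Shares of this size are thus near those that random labels give.

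let-7g-5p stood at 26170, 18947 and 43584 CPM in W and 6481, 2366 and 9905 in Ta. Its difference of 2.24 ± 0.92 was the highest of the family (adjusted p = 0.937). let-7f-5p stood at 52446, 29349 and 85455 CPM in W and 14222, 13863 and 14445 in Ta (1.98 ± 0.86, adjusted p = 0.937). Every W library of both lay above every Ta library. let-7a-5p stood at 41172, 31309 and 57440 CPM in W and 16102, 9533 and 15638 in Ta. let-7c-5p stood at 52638, 28660 and 55415 CPM in W and 11623, 17184 and 23335 in Ta. let-7a-5p and let-7c-5p, which differ at 1 base and between which reads may be hard to assign, were both apart without overlap. let-7d-5p (3559 to 6276 CPM in W, 1119 to 2003 in Ta) and let-7e-5p (388 to 641 in W, 204 to 283 in Ta) completed the 6, while let-7b-5p, let-7i-5p and miR-98-5p overlapped.

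The family's median difference at 6 months was 1.54, beside 0.00 over all tested miRNAs. In each setting tried, single left-out libraries aside, 9 of 9 members were higher, with medians of 1.34 to 1.76. Without let-7g-5p, which was added to the list after the table had been seen, 8 of 8 were higher and 5 did not overlap. Summed, the family took 12.3% to 24.4% of raw counts in W and 4.54% to 11% in Ta. By mean level W was the highest of the 9 metals for 6 of 9 members, and Ta the lowest or second lowest for 6 of 9. The W libraries again held the higher totals, and the part of depth was not tested. At 12 months 2 of 9 members were higher with all libraries (median -0.17) and 9 of 9 without the low library (median 0.31).

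**Figure D3:**
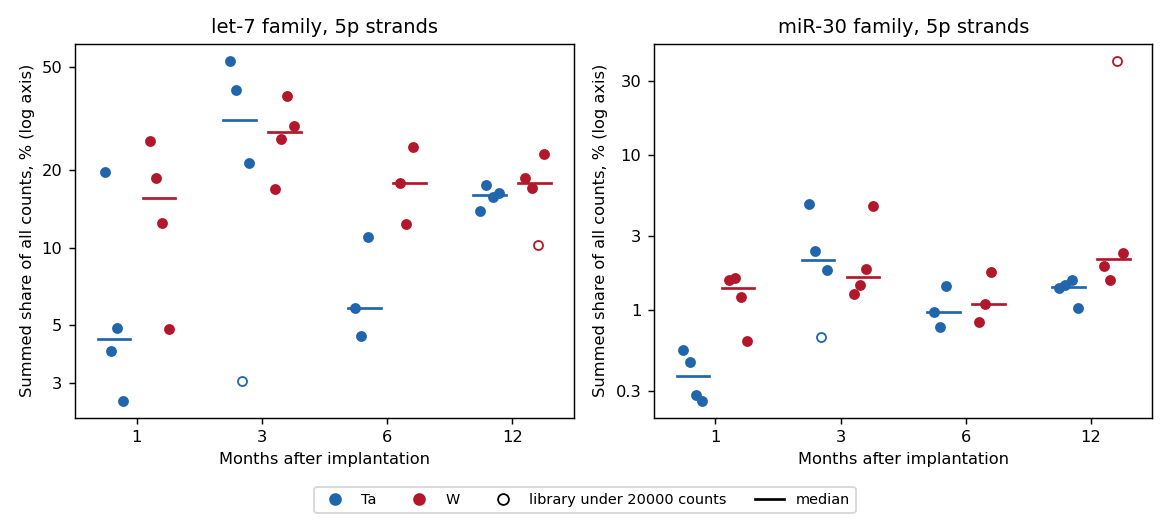
Summed share of all raw counts (log axis) taken by the 9 let-7 family members and the 4 measured miR-30 family members in each library. let-7 is apart at 6 months (12.3% to 24.4% in W, 4.54% to 11% in Ta) and miR-30 at 1 month (0.634% to 1.62% in W, 0.261% to 0.552% in Ta).

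Among the miRNAs lower in W at 6 months, miR-423-5p, a miRNA readily detected in serum, stood at 3682, 5081 and 2519 CPM in W and 11663, 30114 and 7083 in Ta. The groups did not overlap, on CPM or as shares of raw counts (0.228% to 0.512% in W, 0.98% to 2.5% in Ta). The difference was -2.11 ± 0.86 (adjusted p = 0.937). At the other months miR-423-5p overlapped between the groups. miR-192-5p, made in liver and gut, stood at 44386, 44143 and 27209 CPM in W and 47526, 95807 and 54457 in Ta. miR-92a-3p, of the miR-17-92 cluster and rich in red cells, stood at 8484, 8554 and 6899 CPM in W and 8574, 16334 and 15703 in Ta. For both, the highest W library lay just below the lowest Ta library. Higher in W without overlap were the lymphocyte miRNA miR-150-5p (1013 to 1563 CPM in W, 530 to 842 in Ta), miR-20a-5p of the miR-17-92 cluster (258 to 811 in W, 93.7 to 219 in Ta) and miR-194-5p of liver and gut (224 to 403 in W, 23.2 to 167 in Ta). miR-194-5p and miR-192-5p, which come from shared precursors, lay on opposite sides. None of these miRNAs was called. Each is 1 of the miRNAs without overlap at this month, whose share was near that of random labels.

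At 12 months, miR-30d-5p was higher in W than in Ta and was the one miRNA called. The call was lost without the W library of 3789 counts. It was also lost with a replicate block (adjusted p = 0.162) and with W and Ta libraries fitted alone (adjusted p = 0.470), and DESeq2 gave it no adjusted p. Of 224 miRNAs tested 1 was called (0.446%), 31 had an unadjusted p under 0.05, and DESeq2 called 5. Without the low library 0 of 242 were called (0%), with 30 at an unadjusted p under 0.05. miR-30d-5p stood at 6976, 7828, 136407 and 6284 CPM in W and at 3818, 4337, 4674 and 5548 in Ta. The value of 136407 belonged to the low library, where the miRNA had 825 counts. The difference of 3.09 ± 0.70 (adjusted p = 0.0176) became 0.90 ± 0.40 (adjusted p = 0.333) without it. The other 3 W libraries still lay above all 4 Ta libraries. Among 24 libraries of the other metals the range was 1308 to 10458 CPM with a median of 3142.

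The other miR-30 members did not stand apart at 12 months once the low library was left out. miR-30a-5p stood at 2624, 3662, 74238 and 3108 CPM in W and 7132, 3089, 2666 and 2547 in Ta. miR-30e-5p stood at 856, 1203, 41501 and 1490 CPM in W and 2100, 1856, 1544 and 548 in Ta. In both, only the low library lay above the Ta range. Their differences went from 2.43 ± 0.76 to 0.01 ± 0.50 and from 2.88 ± 0.88 to -0.06 ± 0.61 without it, and the family median from 2.65 to 0.32. miR-199a-3p moved likewise, from 2.66 ± 0.77 to 0.68 ± 0.59.

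**Figure D4:**
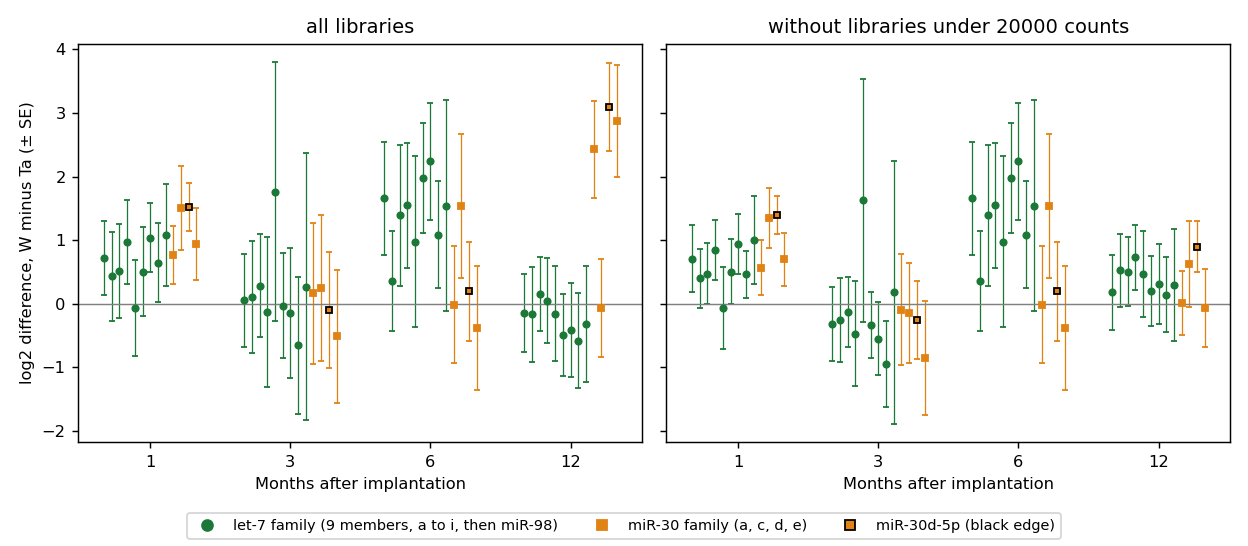
Log2 difference, W minus Ta, with its SE for the 9 let-7 and 4 miR-30 family members at each month, with all libraries and without those under 20000 counts. The let-7 members lie above 0 at 6 months in both panels, and the miR-30 points near 3 at 12 months, miR-30d-5p at 3.09 among them, are absent without the low W library.

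Lower in W at 12 months, none of them called, were miR-126a-3p and several miRNAs of other tissues. Their differences were smaller without the low library. miR-126a-3p, the main miRNA of endothelium and platelets, stood at 766, 516, 0 and 599 CPM in W and 6385, 1511, 1308 and 988 in Ta. The groups did not overlap (-2.32 ± 0.73, adjusted p = 0.136), and without the low library, which had the 0, the difference was -1.70 ± 0.65 (adjusted p = 0.333). Most other miRNAs listed for endothelium and platelets did not share this direction without the low library. miR-223-3p differed by 1.26 ± 0.72, miR-222-3p by 0.80 ± 1.37, miR-24-3p by 0.56 ± 0.47 and miR-221-3p by 0.13 ± 0.97. Only miR-126a-5p was also lower, at -0.27 ± 1.10. miR-100-5p stood at 5490, 3472, 1819 and 7505 CPM in W and 50579, 23108, 9169 and 11911 in Ta. That was also without overlap (-2.36 ± 0.90, adjusted p = 0.246, and -1.79 ± 0.90 without the low library). miR-99a-5p, a close relative of miR-100-5p, had a difference of -2.30 ± 0.90 (adjusted p = 0.246), or -1.58 ± 0.85 without it. miR-29a-3p, a repressor of collagen genes, stood at 2944, 2656, 331 and 2139 CPM in W and 4676, 3791, 3602 and 4181 in Ta. Its difference of -0.97 ± 0.66 became -0.36 ± 0.62 without the low library, and that of miR-192-5p went from -1.21 ± 0.68 to -0.52 ± 0.60. In all, 6 of 224 lay wholly below Ta (2.68%): miR-192-5p, miR-99a-5p, miR-29a-3p, miR-100-5p, miR-126a-3p and miR-195-5p. Only miR-30d-5p lay wholly above (0.446%). Without the low library the same 6 of 242 lay wholly below (2.48%), while 8 lay wholly above (3.31%): miR-30d-5p, miR-151-5p, miR-328a-3p, miR-30e-3p, miR-187-5p, miR-676, miR-93-5p and miR-17-5p. In an exact permutation test, full separation in either direction has p = 0.0286 for 4 against 4 and 0.0571 for 3 against 4. The shares with and without the low library are thus near those that random labels give. The smaller W group separates more easily, so the rise to 8 was not read as a result.

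Averaged over the 4 months, no miRNA passed the test: 0 of 320 were called with all libraries (0%) and 0 of 326 without the low ones (0%). This test, and that of the change over months, took all libraries as independent, though those of different months may share a rat. An unadjusted p under 0.05 was found for 31 and 27, and DESeq2 called 47. The let-7 family was higher in W for 9 of 9 members with a median of 0.54, or 0.51 without the low libraries, beside -0.12 and -0.02 over all tested miRNAs. Over the settings tried, single left-out libraries aside, 7 to 9 of 9 members were higher, with medians of 0.40 to 0.72. By month, with all libraries, the family median was 0.65, 0.05, 1.54 and -0.17 at 1, 3, 6 and 12 months. let-7g-5p differed by 0.63 ± 0.41 with all libraries and by 0.69 ± 0.34 (adjusted p = 0.588) without the low ones. The miR-30 family had a median of 0.85 with all libraries and 0.30 without the low ones, and miR-30d-5p differed by 1.20 ± 0.38 (adjusted p = 0.176) and 0.50 ± 0.25 (adjusted p = 0.600). With DESeq2 size factors in edgeR, miR-30d-5p was the 1 miRNA called (adjusted p = 0.0084).

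The smallest p values of the averaged comparison belonged to sparse miRNAs, given here by the libraries in which they had a count, since their fitted differences depend on groups at 0. miR-532-5p was detected in 1 of 15 W libraries with 34 counts, in 7 of 15 Ta libraries with 359 counts and in 37 of 108 libraries of the other metals (adjusted p = 0.0908). At 6 months it was at 0 in the 3 W libraries and at 52.8, 39.2 and 5.02 CPM in Ta. miR-32-5p, which shares its seed with miR-92a-3p, was detected in 1 W library with 9 counts, in 4 Ta libraries with 470 counts and in 19 of the others (adjusted p = 0.0908). Both had an adjusted p of 0.156 without the low libraries. On the higher side, miR-450b-3p was detected in 6 W libraries with 1456 counts, in 2 Ta libraries with 244 counts and in 28 of the others (adjusted p = 0.189). Each of its counts was a multiple of 4, for which the cause was not tested.

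The difference between W and Ta changed over the months for 4 of 320 miRNAs (1.25%), and for 0 of 326 without the low libraries (0%). The 4 were miR-26a-5p (adjusted p = 0.000453), miR-199a-3p (adjusted p = 0.00394), miR-30d-5p (adjusted p = 0.0453) and miR-16-5p (adjusted p = 0.0453), by a test of 3 degrees of freedom. Without the low libraries the adjusted p were 0.466, 0.859, 0.466 and 1.0. With each of the 30 libraries left out in turn, miR-26a-5p was called in 29 of 30 fits, miR-199a-3p in 28, miR-30d-5p in 20 and miR-16-5p in 9. Each low library of W or Ta was left out in only 1 of these fits, and no fit left out both. These counts therefore do not show whether a call holds without the low libraries. For miR-26a-5p and miR-16-5p the difference farthest from 0 was at 3 months, where W lay below Ta, and for miR-30d-5p at 12 months, where W lay above. miR-199a-3p lay below at 3 months (-3.72 ± 1.49) and above at 12 months (2.66 ± 0.77). Those are the months of the 2 low W and Ta libraries.

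**Figure D5:**
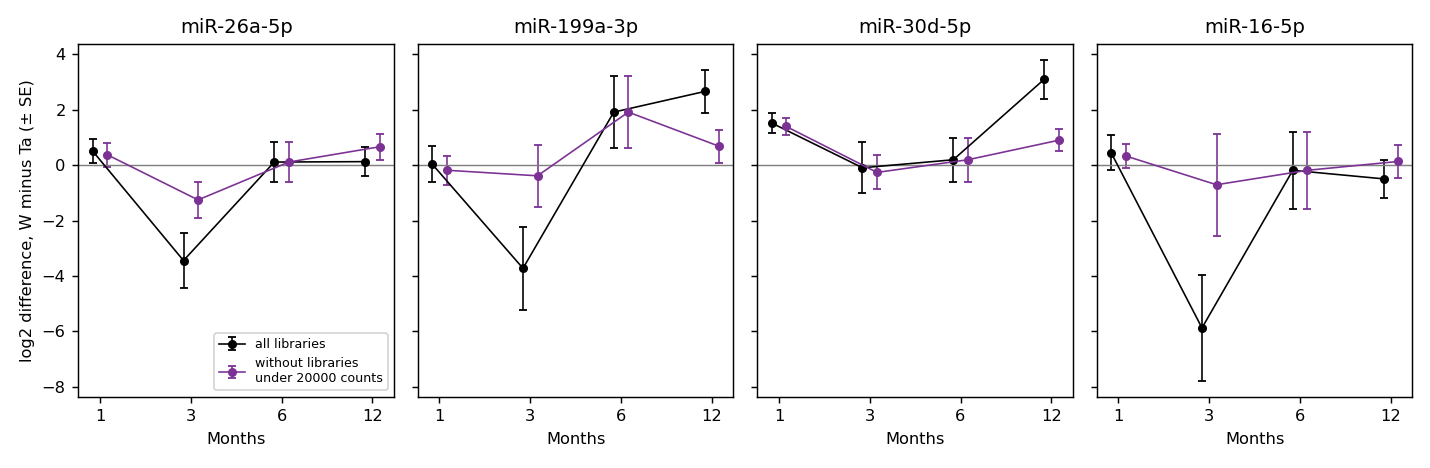
Log2 difference, W minus Ta, with its SE at each month for the 4 miRNAs whose difference changed over months, with all libraries (black) and without those under 20000 counts (purple). The miR-26a-5p value of -3.44 and the miR-16-5p value of -5.87 at 3 months, and the miR-30d-5p value of 3.09 at 12 months, move toward 0 without the low libraries.

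Lists of miRNAs by tissue or process were then read across the months. They had been chosen with earlier results of these data known, and beside the background of 0% to 0.446% called they held 0 called miRNAs in W against Ta at any month with all libraries, except miR-30d-5p of the miR-30 family at 12 months. The muscle list matters here because the pellets lay in muscle. Of its tested members 1 of 3 was higher in W at 1 month, 3 of 3 at 3 months, 4 of 5 at 6 months and 0 of 5 at 12 months. miR-1-3p stood at 63.7, 117, 0 and 602 CPM in W at 12 months and at 17186, 1470, 0 and 519 in Ta (-4.42 ± 1.68, adjusted p = 0.246, and -3.86 ± 1.83 without the low library). One Ta library held most of that level, and the 0 of W was the low library. miR-206-3p, of regenerating and slow muscle, stood at 976, 565, 0 and 2004 CPM in W and 6255, 2188, 685 and 1258 in Ta at 12 months, with overlap. The list's median went from 4.52 at 3 months to -4.39 at 12 months, or from 1.45 to -1.47 with members that had a group at 0 set to their bound. Without the low libraries 3 of 3 and 0 of 5 were higher, with medians of 4.68 and -3.86.

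Of the liver list, miR-192-5p lay wholly below Ta at 6 and 12 months and miR-194-5p wholly above at 6 months, neither of them called. The other members overlapped between the groups. miR-122-5p, made almost only in hepatocytes, stood at 54296, 149628, 115739 and 131632 CPM in W and 94896, 217834, 166428 and 74920 in Ta at 12 months. At 6 months it stood at 167261, 69338 and 19760 CPM in W and 33484, 45280 and 54072 in Ta. The groups overlapped at both months, and averaged over months the difference was 0.14 ± 0.43, or 0.08 ± 0.44 without the low libraries. All 5 tested liver members were lower in W at 12 months, with a median of -1.21, beside -0.19 over all tested miRNAs. Without the low library all 5 were again lower, with a median of -0.66 beside 0.16 over all tested, and miR-122-5p differed by -0.02 ± 0.79. The leukocyte list held 5 of 7 higher members at 1 month, 2 of 7 at 3 months and 4 of 7 at 6 and 12 months (3 of 7 at 3 months and 5 of 7 at 12 months without the low libraries), and miR-142-3p, one of its defining members, had 0 counts in all 30 libraries.

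The miRNAs that respond to inflammation were mixed. miR-21-5p, raised in many kinds of injury, stood at 1831, 1796, 2594 and 1513 CPM in W and 1136, 1436, 1714 and 1043 in Ta at 1 month, where the lowest W library lay below the highest Ta library. Averaged over months it differed by 0.69 ± 0.40 (adjusted p = 0.581), or 0.17 ± 0.29 without the low libraries. miR-146a-5p, a brake on innate immune signalling, differed by -0.95 ± 0.52 (adjusted p = 0.528), or -0.89 ± 0.48 without them. Of the inflammation list 2 of 6 tested members were higher in W at 1 month, 3 of 6 at 3 months, 5 of 8 at 6 months and 4 of 6 at 12 months. Without the low library 1 of 6 was higher at 12 months: miR-146a-5p went from 0.90 ± 0.96 to -1.60 ± 0.88, miR-21-5p from 1.00 ± 0.62 to -0.06 ± 0.46 and miR-146b-5p from 0.00 ± 0.94 to -1.08 ± 0.93. At 1, 3, 6 and 12 months the fibrosis list held 5 of 9, 5 of 8, 2 of 9 and 4 of 9 higher members, and 3 of 9, 4 of 8, 2 of 9 and 5 of 9 without the low libraries. The endothelium and platelet list held 4, 2, 4 and 2 of 6, and 4, 1, 4 and 4 of 6 without them. The miR-17-92 and paralogous clusters, which promote cell division, held 8 of 10, 4 of 7, 5 of 9 and 5 of 8, and 7 of 10, 4 of 7, 5 of 9 and 7 of 9 without them. The epithelium and kidney list held 7 of 7 higher members at 3 months and 1 of 11 at 12 months, with 4 of 11 at 1 and 6 months. Without the low libraries it held 7 of 9 at 3 months, with 1 lower, and 4 of 11 at 12 months, and the change over months was not tested for the list. miR-210-3p, the main hypoxia miRNA, was detected in 0 W libraries and in 1 Ta library with 2 counts. miR-34a-5p, a target of p53, was detected in 2 W libraries with 5 counts and in 3 Ta libraries with 365 counts.

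W was also set against the mean of the log levels of the other metals, without Ta, to place W among the implants. At 1 month 0 miRNAs were called (0%, also without the low libraries), and miR-30d-5p of W lay inside the range of the other metals. At 3 months 12 were called (7.19%), all higher in W and led by miR-450b-3p and miR-664-3p, each with counts in 1 of 4 W libraries and 3 of 28 of the others. Without the low libraries 2 were called (1.11%), miR-340-3p and miR-3068-5p, each with counts in 1 of 4 W libraries. At 6 months 4 were called in both fits (1.47% and 1.47%), miR-211-5p, miR-1306-3p, miR-1843b-5p and miR-211-3p, each sparse: miR-211-5p had counts in 2 of 3 W libraries and in 2 of 28 of the others. At 12 months 7 were called (3.12%) and 0 without the low library (0%). The 7 were miR-30d-5p, miR-30e-5p, miR-30a-5p, miR-199a-3p and miR-101b-3p, which were higher, and miR-423-5p and miR-378b, which were lower. miR-30d-5p lay higher by 3.58 ± 0.40, or 1.17 ± 0.29 (adjusted p = 0.0675) without the low library, and miR-423-5p differed by -1.99 ± 0.55 (adjusted p = 0.029, 0.176 without the low library). miR-378b had a count in 0 of 4 W libraries, 0 of 4 Ta libraries and 21 of 24 of the others.

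Averaged over months, 9 miRNAs were called against the other metals (2.81%) and 6 of 326 without the low libraries (1.84%). The 6 were miR-34b-3p (adjusted p = 1.52e-07), miR-149-5p, miR-450b-3p, miR-10a-3p, miR-503-5p and miR-664-3p, all higher in W, and miR-139-3p, miR-205 and miR-483-5p were called only with all libraries. miR-34b-3p, a p53 target, was detected in 4 of 15 W libraries with 130 counts, in 2 of 15 Ta libraries with 227 counts and in 6 of 108 of the others with 38 counts. Its summed count was thus lower in W than in Ta, and it had no count in most libraries of any metal. miR-10a-3p was detected in 6 of 15 W libraries, 2 of 15 Ta libraries and 21 of 108 of the others. With the other metals as 1 group per month, an alternative chosen after seeing the data, the counts of calls at 1, 3, 6 and 12 months were 0, 0, 0 and 7, and 51 averaged over months, of which 2 were higher and 49 lower in W. The share of higher calls thus depended on how the other metals were combined.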

How the data were processed

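Small RNA of rat serum was sequenced on an Illumina NextSeq 500 from libraries of the Norgen Biotek kit, per the labels' protocols. The authors deposited raw counts of 471 mature miRNAs in 138 libraries. Reads were assigned on Rnor_6.0, per the submitters' processing notes; the aligner and counter, not given in the sources used here, stay unnamed, as does the miRBase release. Every count column matched 1 sample, and 0 columns were left unused. None of 42 pairs of W or Ta replicates held identical counts.

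Counts were filtered with filterByExpr (minimum count 10, minimum total 15), scaled by TMM and tested with the edgeR 4.0.16 quasi-likelihood test (R 4.3.3, limma 3.58.1) with Benjamini-Hochberg adjustment and a threshold of 0.05. Each month was fitted with all metals of that month, and the averaged difference and its change over months with all 138 libraries. Single values were compared by exact permutation tests. The scripts were tested on simulated data.

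The text names miRNAs called in W against Ta by the main fits, and part of those called against the other metals. It also names some with a small p in each direction, a fixed set of tissue miRNAs, and others said to be without overlap. The listing by p is not complete. Some miRNAs with a smaller p than others named for the same month are left out, miR-145-3p and miR-671 in W against Ta among them. Members and lists were chosen with earlier results of these data known, and let-7g-5p was added to its list after the table was seen. The labels do not say whether equal replicate numbers pair W with Ta libraries, and the main fits used no pairing. Of 15 same-numbered pairs 2 had a correlation over 0.1. Alternatives were libraries under 20000 counts left out, DESeq2 1.42.0 and its size factors, no filter, the replicate block, W and Ta alone, each library left out, and, added after seeing the data, the other metals pooled and counts divided by their step. Depth was 1645 to 2401492 counts per library, and a miRNA with 0 counts may still hold up to 3 counts of a library's total.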

Additional observations from a re-analysis of the deposited data

Results flagged for a closer look

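Libraries far from the others of their group were looked for in 42 sets of 4 values, each set being a group and a measure. Of these sets 7 held such a library. The sets share libraries, and the levels flagged belong to miRNAs also called for a change over months. The count of flags was therefore not set against chance. Among the totals, Ta replicate 4 at 3 months was flagged, with 2195680 counts beside a median of 176194 in the other 3. W replicate 3 at 12 months was flagged with 3789 counts beside 1459930. The other 5 were levels in the libraries of 1645 and 3789 counts. In Ta replicate 3 at 3 months miR-26a-5p stood at 273139 CPM, miR-16-5p at 187251 CPM and miR-199a-3p at 71186 CPM, against medians of 19644, 759 and 1409 CPM in the other libraries of the group. In W replicate 3 at 12 months miR-30d-5p stood at 136407 CPM and miR-199a-3p at 24801 CPM, against medians of 6976 and 1659 CPM.

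The difference between W and Ta changed over the months by an interaction test for miR-26a-5p (adjusted p = 0.000453), miR-199a-3p (adjusted p = 0.00394), miR-30d-5p (adjusted p = 0.0453) and miR-16-5p (adjusted p = 0.0453). Without the 6 libraries under 20000 counts, 2 of them W or Ta, the adjusted p were 0.466, 0.859, 0.466 and 1.0.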

How the results depend on the processing

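The main counts of called miRNAs in W against Ta were 0, 0, 0 and 1 at 1, 3, 6 and 12 months, 0 averaged over months and 4 for the change over months. Without libraries under 20000 counts the count was 1 at 1 month, 0 at 12 months and 0 for the change. With DESeq2 size factors it was 5 at 3 months, 5 at 12 months, 1 averaged and 11 for the change. With no filter it was 3, 4 and 9 at 1, 3 and 12 months and 17 for the change. Same-numbered W and Ta libraries had correlations of -0.0937 to 0.302, and whether the numbers pair libraries is not stated. The replicate block gave 0 at 12 months and 2 for the change. W and Ta libraries alone gave 0 at 12 months. DESeq2 called 7, 7, 5 and 5, then 47 averaged and 12 for the change. Counts divided by their step gave 5 at 12 months. With 1 library left out the count ran from 0 to 1 at 1 month, 0 to 4 at 3 months, 0 to 0 at 6 months, 0 to 8 at 12 months, 0 to 1 averaged and 0 to 7 for the change. W against the other metals gave 0, 12, 4, 7 and, averaged, 9. The counts that differed by over 1.5 times were 2 at 3 months and 0 at 12 months without the low libraries; 9 at 1 month and 27 averaged with DESeq2 size factors; 19, 30, 23 and 22 by month with no filter; 0 at 3 and 6 months and 0 averaged with the replicate block; 1, 3, 0, 15 and 61 with DESeq2; 0 at 3 and 6 months and 51 averaged with the other metals pooled; and 7 at 6 months and 11 at 12 months with counts divided by their step. Without the low libraries the W minus Ta difference in miRNAs detected turned from 11.8 to -14.1 at 3 months and from -22.8 to 12.5 at 12 months, and miR-101b-3p against the other metals turned to -0.78 at 12 months. miR-483-5p against the pooled other metals turned to -0.053. Apart from the removal of libraries, the cause was not tested. Depth limits what a count of 0 shows. With the limit set at 3 counts, it allows a share of up to 0.182% in the library of 1645 counts and 0.0792% in that of 3789.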

Other observations

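For 30 of the 305 miRNAs with a count in at least 10 libraries (9.84%), every count in the table was a multiple of a whole number over 1. miR-24-3p came only in multiples of 2 in 138 libraries, miR-29b-3p in multiples of 5 in 103, miR-503-3p in multiples of 4 in 115, and miR-542-3p in multiples of 9 in 47. Several of the 30 lie in the X-linked miR-322 cluster, namely miR-322-3p, miR-322-5p, miR-503-5p, miR-503-3p, miR-351-5p, miR-351-3p, miR-450b-3p, miR-450b-5p, miR-542-3p and miR-542-5p. No processing step in the sources used here accounts for the steps, and their cause was not tested. A count model reads such a value as several independent reads. Dividing each by its step, chosen after seeing the data, moved the adjusted p of miR-450b-3p in W against the other metals, averaged over months, from 5.42e-05 to 0.000503, that of miR-503-5p from 0.0089 to 0.0452, and that of miR-664-3p from 0.0149 to 0.0442. miR-29b-3p against the other metals at 3 months went from an adjusted p of 0.0406 to 0.15. At 12 months in W against Ta, the division moved the median difference of all tested miRNAs from -0.19 to -0.20, and it left miR-30d-5p called, with miR-30e-5p, miR-30a-5p, miR-199a-3p and miR-101b-3p called beside it. All 5 stood highest in the W library of 3789 counts.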
